A study of Drosophila melanogaster with 17 samples.

Results

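The starch-digesting and maltose-digesting enzymes of the fly gut were followed in sorted progenitor cells in which basic helix-loop-helix transcription factors had been raised or lowered. The set held 10 of the 17807 genes in the deposited count files, chosen by function from their gene symbols: the amylase genes Amy-p and Amy-d, the amylase-related gene Amyrel, and the maltase genes Mal-A1, Mal-A2, Mal-A3, Mal-A4, Mal-A6, Mal-A7 and Mal-A8. Amylases cut the long glucose chains of starch and glycogen at internal bonds, and maltases, which are alpha-glucosidases, free glucose from the short sugars that remain. In the midgut this is mainly the work of absorptive enterocytes, and the digestive enzyme genes are known to differ strongly between gut regions and to respond to dietary sugar. The cells sorted here were not enterocytes but cells with escargot (esg) driver activity, the intestinal stem cells and enteroblasts from which enterocytes and hormone-secreting enteroendocrine cells arise.

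All flies carried esg-Gal4, UAS-GFP and tub-Gal80[ts], a temperature-sensitive repressor of Gal4, so every group shared the driver and the reporter, and the transgenes acted in the esg+ cells. They were kept at 18 °C until adulthood and moved to 29 °C for 2 days before GFP-positive cells were sorted from pooled midguts. Batch 1, read as single reads of 50 nt, held 3 control libraries with the driver alone, 2 with UAS-da, which overexpresses monomeric daughterless (da), the fly E protein, and 3 with da RNAi. Batch 2, read as paired reads of 150 nt, held 3 control libraries, 3 with UAS-da:da, a forced Daughterless homodimer, and 3 with UAS-scute, a proneural partner of Daughterless. Neither the age nor the sex of the flies is given in the labels used here. Each library was a separate pool of about 100 midguts and of 20000 to 40000 sorted cells.

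Between 33889877 and 40868714 counts fell on genes in a library of batch 1, and between 47136298 and 66679229 in one of batch 2. Levels are in CPM, counts scaled by effective library size. The level of da was 7.74 times the control level with da overexpressed, 0.248 times with da RNAi and 2.82 times with da:da, and sc was 1164-fold higher with scute, with transgene reads included. The defining gene of the sort, esg, was at 365 to 973 CPM in the 17 libraries, and none of 10 progenitor markers was without counts in any group. RNA of genes listed as markers of other gut cells was present too. Whether it came from other cells or from the esg+ cells was not tested. The 13 enterocyte markers summed to 690 to 744 CPM in controls of batch 1 and 746 to 808 CPM in controls of batch 2, and the 12 enteroendocrine markers summed to 238 to 311 and 4646 to 5129 CPM. In pools of sorted cells, fewer cells that express a gene and less of its RNA per cell cannot be told apart.

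All 10 genes lie on chromosome arm 2R (BDGP6.28). Mal-A1 (8449664 to 8451904, minus strand), Mal-A2 (8453627 to 8455782, plus), Mal-A3 (8455909 to 8457892, minus), Mal-A4 (8458815 to 8460884, plus), Mal-A6 (8465158 to 8467595, plus), Mal-A7 (8468646 to 8471663, minus) and Mal-A8 (8471954 to 8473961, plus) stand in a cluster of 24.3 kb, together with Mal-A5, which is not in the set. Amyrel (16651095 to 16652699, minus) lies apart from the amylase pair. Amy-p (17118636 to 17120303, minus) and Amy-d (17124764 to 17126369, plus) are near-identical copies that point away from each other, with 4.461 kb between them. Reads that matched several places were not counted, so for this pair a count holds only reads that told the copies apart, and the split between them is uncertain. Exons of the other members share few bases with neighbouring genes, at most 4.49% of exon length, for Mal-A1.

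Per kilobase of exon, Mal-A6 had the highest mean level of the 10 in the controls of batch 1, at 7.41 CPM per kb, and its libraries did not overlap with those of the next gene, Mal-A2, at 2.16. Below it, from Mal-A2 down to Mal-A7 at 0.467 CPM per kb, the libraries of each gene overlapped with those of the next in the order. Amyrel stood last at 0.139 CPM per kb. In controls of batch 2 Amy-p came first at 61.4 CPM per kb, followed by Mal-A1 at 22.9 and Mal-A6 at 17.3, whose libraries overlapped from each to the next. There, too, Amyrel was last, at 0.163 CPM per kb. The order therefore differed between the control groups, which also differ in read layout, so levels below are compared within a batch.

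**Figure D1:**
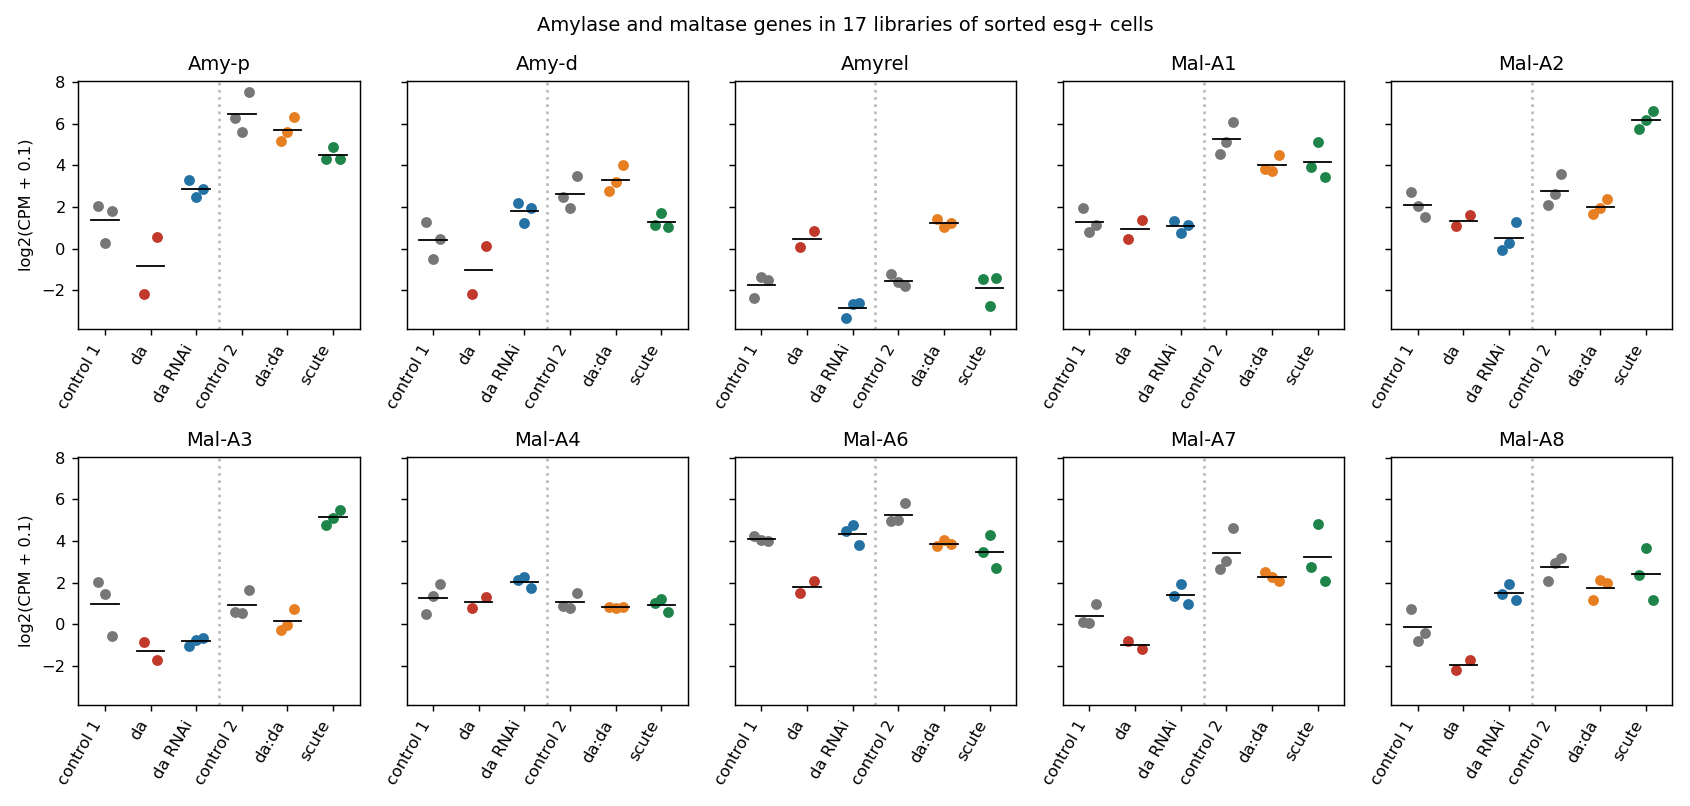
Level of each gene in each of the 17 libraries, as log2(CPM + 0.1), by group; points are libraries, black lines the means of the log2 values, and the dotted line separates batch 1 (left) from batch 2 (right). Mal-A2 and Mal-A3 stand highest in the 3 scute libraries, and Amyrel in the da and da:da libraries of their batches.

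The 10 genes passed the filter on low counts in every comparison. The term called means an adjusted p (Benjamini-Hochberg, over all genes tested) under 0.05 in edgeR's quasi-likelihood test. Against the control of its batch, da overexpression changed 5 of the 10, 1 higher and 4 lower, where 22.9% of the 9540 genes tested were called (13.5% higher, 9.36% lower). The da knock-down changed 3, 1 higher and 2 lower, with 20.4% of all genes called (11.2% higher, 9.16% lower). The da:da homodimer changed 2, 1 in each direction, with 11.9% of 14190 genes called (5.39% higher, 6.52% lower), and scute changed 5, 2 higher and 3 lower, with 45% called (22.8% higher, 22.2% lower). These counts with the knock-down, da:da and scute, from fits without pairing, were near the background shares. With the replicate number as a block, chosen after seeing the data, a fit of control and knock-down libraries alone called 5 members and 2676 genes. The median log2 change of the 10 genes was −1.46 with da overexpressed, 0.50 with da RNAi, −0.90 with da:da and −0.25 with scute, and over all genes tested it was −0.02, −0.01, −0.01 and 0.05.

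**Figure D2:**
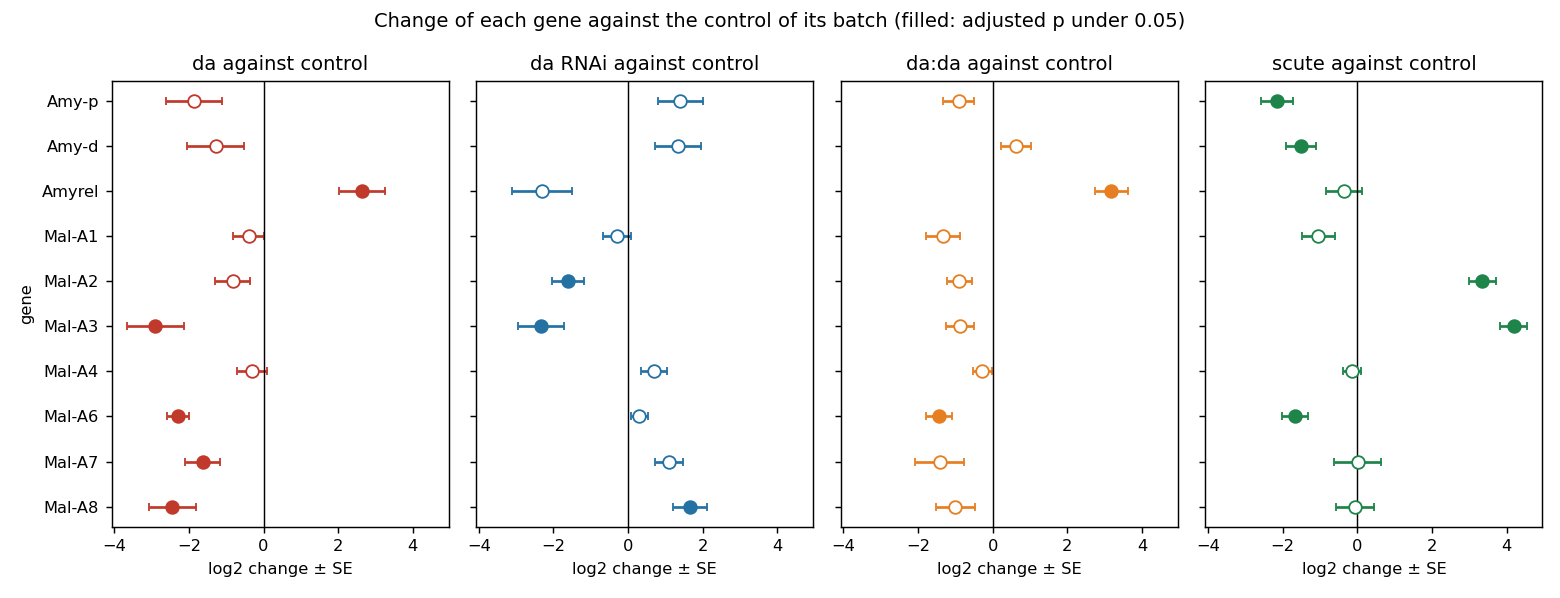
Log2 change of each gene against the control of its batch, with its standard error as bars, from the edgeR quasi-likelihood test; filled points passed an adjusted p of 0.05. Mal-A2 and Mal-A3 lie at 3.35 and 4.18 with scute, and Amyrel at 2.64 and 3.17 with da and da:da.

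The amylase pair was lower with scute. Amy-p (FBgn0000079) was at 77.5, 48.7 and 181 CPM in the controls of batch 2 and at 19.7, 29.5 and 19.6 CPM in the scute libraries, every scute library below every control. That was a log2 change of −2.16 ± 0.43 (SE, n = 3 each, edgeR adjusted p = 0.00123), or 4.47-fold lower. Amy-d (FBgn0000078) was at 5.48, 3.77 and 11.3 CPM in the same controls and at 2.09, 3.14 and 1.98 CPM with scute, again without overlap. Its log2 change was −1.51 ± 0.41 (edgeR adjusted p = 0.00897). The third control held the most RNA of 9 of the 10 genes, Amyrel excepted, and its 28 digestive proteases summed to 2762 CPM, against 1285 and 1644 in the other controls. The part of that library in these results was measured by leaving it out: the change of Amy-p was then −1.46 ± 0.31 (edgeR adjusted p = 0.00309), and that of Amy-d −0.94 (edgeR adjusted p = 0.0531), no longer called. The call of Amy-d was also lost with total counts (−1.07, edgeR adjusted p = 0.0519).

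With da:da the copies went different ways, and neither change was called. Amy-p was at 35.5, 49.0 and 78.6 CPM, within the span of the controls, with a log2 change of −0.92 ± 0.41 (edgeR adjusted p = 0.21). Amy-d was at 6.64, 9.12 and 15.9 CPM, also overlapping with controls, with a change of 0.62 ± 0.39 (edgeR adjusted p = 0.409). With both copies summed as 1 gene the change was −0.75 ± 0.41 (edgeR adjusted p = 0.317).

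In batch 1 the amylases were low and spread widely. Amy-p was at 4.03, 1.11 and 3.35 CPM in controls, at 0.121 and 1.37 CPM with da overexpressed, and at 9.74, 5.56 and 7.08 CPM with da RNAi. Every knock-down library was above every control while the da libraries overlapped with the controls and stood far apart from each other. Amy-d was at 2.30, 0.613 and 1.30 CPM in controls, at 0.121 and 0.989 CPM with da and at 4.53, 2.28 and 3.81 CPM with da RNAi, where the lowest knock-down library lay just under the highest control. The knock-down changes, 1.40 ± 0.61 for Amy-p (edgeR adjusted p = 0.141) and 1.33 ± 0.62 for Amy-d (edgeR adjusted p = 0.167), were not called without pairing, save that of Amy-p without a filter (0.024), in the fit of knock-down and control libraries only (0.05 after rounding, just under the threshold) and without the first (0.0483) or the second (0.0489) da library. Same-numbered control and knock-down libraries deviated together. With the replicate number as a block in a fit of these groups alone the changes were 1.5 (edgeR adjusted p = 0.0064) and 1.44 (edgeR adjusted p = 0.00935), both called. That fit called 5 of the members and 2676 genes in all, against 1947 genes in the main fit. With the block over all batch 1 libraries neither was called, at 1.43 for Amy-p (edgeR adjusted p = 0.18) and 1.36 for Amy-d (edgeR adjusted p = 0.211). Amyrel did not pass the filter on low counts in the fit of control and knock-down libraries alone. The changes with da overexpressed were −1.86 ± 0.76 for Amy-p (edgeR adjusted p = 0.11) and −1.29 ± 0.75 for Amy-d (edgeR adjusted p = 0.251). Without the second da library, which left 1 library assumed to vary like the other groups, they were −4.52 (edgeR adjusted p = 0.0217) and −3.50 (edgeR adjusted p = 0.0491). Without the first they were −1.04 (edgeR adjusted p = 0.307) and −0.50 (edgeR adjusted p = 0.651). Without a filter the change of Amy-p was called (−1.87, edgeR adjusted p = 0.0137).

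Set directly against each other, da overexpression and da knock-down gave lower amylase levels with the factor raised. The log2 difference was −3.26 ± 0.79 for Amy-p (edgeR adjusted p = 0.012) and −2.62 ± 0.78 for Amy-d (edgeR adjusted p = 0.0299), and for either gene no da library reached the knock-down libraries. Amy-p was called under every alternative tried, between −5.92 and −2.43. Amy-d was not called without the first da library (−1.83, edgeR adjusted p = 0.0994), without the first (0.0693) or the third (0.0617) knock-down library, or with the replicate block over all batch 1 libraries (0.086). Without the second da library the differences were −5.92 for Amy-p and −4.84 for Amy-d.

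The share of amylase counts that fell to Amy-d differed between the batches and, in batch 2, between genotypes. Amy-d took 36.3%, 35.5% and 27.9% of the summed Amy-d and Amy-p counts in controls of batch 1 and 31.7%, 29.1% and 35.0% with da RNAi. With da overexpressed it took 50% of 8 counts (95% Wilson interval 21.5% to 78.5%) and 41.9% of 105 (32.9% to 51.5%), so the difference from controls was not detectable at this depth. In controls of batch 2 the share was 6.60%, 7.19% and 5.87%. It was 15.7%, 15.7% and 16.8% with da:da, where the Wilson intervals of all 3 libraries (lowest bound 14.3%) lay above those of the controls (highest bound 8.27%). With scute it was 9.58%, 9.63% and 9.20%, all above the controls and below da:da. Wilson intervals cover counting error only, and in batch 2, where each mate was counted, they are too narrow even for that. With 3 libraries against 3, no exact two-sided permutation p can be under 0.1. Read layout differs between the batches, so genotype and layout cannot be told apart across them, and the shares are compared only within a batch.

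**Figure D3:**
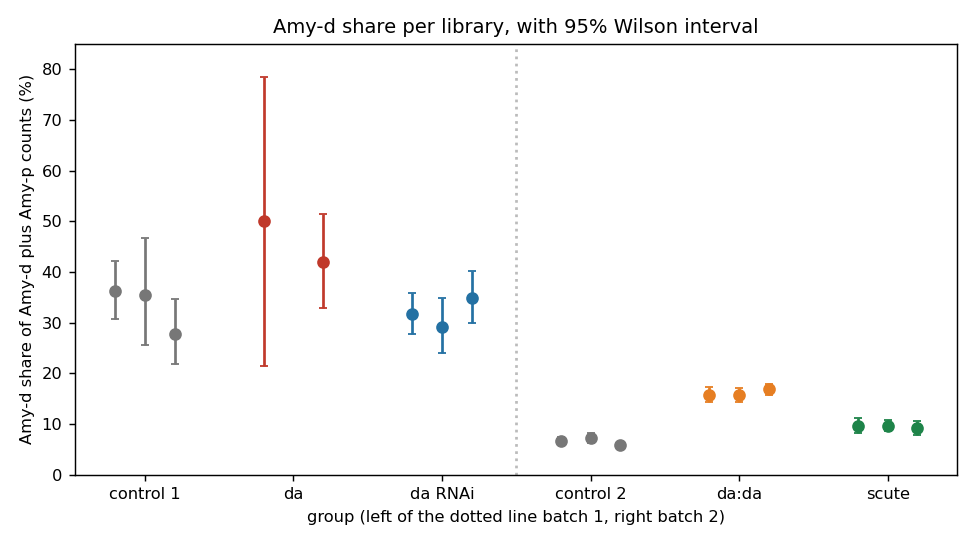
Share of Amy-d in the summed counts of Amy-d and Amy-p in each library, in percent, with 95% Wilson intervals as bars; batch 1 is left of the dotted line and batch 2 right. In batch 2 the da:da libraries lie at 15.7% to 16.8%, above scute and controls.

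Amyrel (FBgn0020506), a diverged amylase, was the member that rose with da and with da:da. In batch 1 it was at 0.0948, 0.295 and 0.254 CPM in controls (4, 13 and 10 counts) and at 0.964 and 1.73 CPM with da overexpressed (32 and 77 counts). Both da libraries stood above every control, a 6.22-fold higher level (log2 change 2.64 ± 0.61, edgeR adjusted p = 0.0125). Without the second da library the change was 2.15 (edgeR adjusted p = 0.102), no longer called. With the homodimer the libraries were at 2.63, 1.96 and 2.26 CPM (145, 86 and 120 counts), against 0.332, 0.233 and 0.190 CPM in controls of batch 2. These groups did not overlap either, and the change was 3.17 ± 0.45 on the log2 scale (n = 3 each, edgeR adjusted p = 0.000526), or 9.02-fold higher, called under every alternative (3.0 to 3.43). The changes with da and da:da differed by 0.58 ± 0.76 (edgeR adjusted p = 0.737).

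With da RNAi, Amyrel gave 0, 2 and 2 counts, or 0, 0.0585 and 0.0668 CPM, all under the lowest control. A count of 0 allows up to 0.0850 CPM in that library. The log2 change of −2.31 ± 0.80 missed the threshold (edgeR adjusted p = 0.07), and it was called without the filter on low counts (0.0392), with total-count scaling (0.0283) and with the replicate block over batch 1 (0.0455). Between da overexpression and knock-down the difference was 4.95 ± 0.76 (edgeR adjusted p = 0.00102), called under every alternative tried. Scute left Amyrel at 0.263, 0.0507 and 0.278 CPM, within the range of the controls except the second library, with a log2 change of −0.35 ± 0.49 (edgeR adjusted p = 0.616) whose sign turned to 0.08 with total counts. Scute against da:da gave −3.53 ± 0.44 (edgeR adjusted p = 4.4e-05).

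Mal-A2 (FBgn0002569) and Mal-A3 (FBgn0002571), maltase genes that end 126 bases from each other on opposite strands, were the members that rose with scute. Mal-A2 was at 4.21, 5.98 and 11.8 CPM in controls of batch 2 and at 54.3, 73.3 and 97.1 CPM with scute. Mal-A3 was at 1.40, 1.36 and 3.09 CPM in those controls and at 27.6, 34.0 and 45.5 CPM with scute. For both genes the lowest scute library was several times the highest control. The changes were 3.35 ± 0.36 for Mal-A2 (10.2-fold, edgeR adjusted p = 9.97e-06) and 4.18 ± 0.37 for Mal-A3 (18.2-fold, edgeR adjusted p = 2.03e-06), n = 3 each. Every alternative kept both calls, with log2 changes of 3.07 to 3.88 for Mal-A2 and 3.97 to 4.69 for Mal-A3. In the scute libraries they were the first and second of the 10 genes per kilobase, at 36.8 and 19.9 CPM per kb, where in controls they had been at 3.60 and 1.09.

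The same libraries differed in cell type markers. With scute, 10 of 12 enteroendocrine markers were higher and 2 lower, where 22.8% of all genes were higher and 22.2% lower. The summed level of these markers was 8028 to 14508 CPM against 4646 to 5129 CPM in controls. Among 13 enterocyte markers 5 were higher and 1 lower, and they summed to 1611 to 1970 CPM against 746 to 808 CPM. Those that rose most were the septate junction genes Tsp2A (373 ± 45.2 against 15.8 ± 7.81 CPM), mesh (297 ± 64.6 against 15.4 ± 9.48 CPM) and Ssk (562 ± 111 against 30.7 ± 16.6 CPM), and Myo31DF, a myosin of the enterocyte brush border, fell to 158 ± 20.3 against 403 ± 43.2 CPM. The stem cell marker Dl, the Notch ligand, was at 164 ± 11.1 against 32.7 ± 6.24 CPM. No marker of either list was at 0 in all libraries of a group in batch 2, and their part in the rise of Mal-A2 and Mal-A3 was not tested.

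The pair of maltases fell with da knock-down. Mal-A2 was at 6.43, 3.99 and 2.77 CPM in controls of batch 1 and at 0.850, 1.11 and 2.37 CPM with da RNAi. Mal-A3 was at 4.03, 2.61 and 0.584 CPM in those controls and at 0.396, 0.497 and 0.534 CPM with da RNAi (14, 17 and 16 counts). No knock-down library reached a control for either gene, but the third control was close. The changes were −1.61 ± 0.43 for Mal-A2 (edgeR adjusted p = 0.0277) and −2.34 ± 0.63 for Mal-A3 (edgeR adjusted p = 0.0284). Mal-A2 was not called without the first control (−1.24, 0.11), the second control (0.0697), the first knock-down library (0.0812) or the second (0.0867). Mal-A3 was not called without the first control (−1.75, 0.109), the second control (0.0819) or the first (0.0838), second (0.0755) or the third (0.0701) knock-down library. The block over all batch 1 libraries gave edgeR adjusted p of 0.0512 and 0.0558, while the block over control and knock-down libraries alone left both called.

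With da overexpressed Mal-A3 was also lower, at 0.452 and 0.202 CPM (15 and 9 counts), both under the lowest control. The log2 change was −2.90 ± 0.76 (edgeR adjusted p = 0.0223). It was not called without the first control (−2.31, 0.0658), the second control (0.0571), the first da library (−3.55, 0.0537) or the second (0.148). Mal-A2 was at 2.02 and 2.92 CPM, overlapping with controls, with a change of −0.83 ± 0.47 (edgeR adjusted p = 0.241). Between overexpression and knock-down Mal-A3 differed by −0.56 ± 0.76 (edgeR adjusted p = 0.625) and Mal-A2 by 0.79 ± 0.47 (edgeR adjusted p = 0.247), so for this pair no difference in opposite directions was called. These comparisons share their control libraries. With da:da the changes were −0.89 ± 0.34 for Mal-A2 (edgeR adjusted p = 0.135) and −0.88 ± 0.37 for Mal-A3 (edgeR adjusted p = 0.171), that of Mal-A2 being called without the first control (−1.17, 0.0433), and against da:da the scute libraries were higher by 4.24 ± 0.37 and 5.06 ± 0.39 (edgeR adjusted p = 2.46e-06 and 7.87e-07).

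Mal-A6 (FBgn0050360), the maltase with the highest level per kilobase in batch 1, was lower with each of the 3 overexpressed factors. It was at 18.6, 16.6 and 15.8 CPM in controls of batch 1, the tightest group of any member there, and at 2.74 and 4.14 CPM with da overexpressed. The da libraries stood far below, 4.91-fold lower (log2 change −2.30 ± 0.29, edgeR adjusted p = 0.000483), and the call held under every alternative (−2.63 to −2.03). With da RNAi it was at 22.0, 26.8 and 14.1 CPM, on both sides of the controls, and the change of 0.30 ± 0.23 was not called (edgeR adjusted p = 0.4). Overexpression against knock-down gave −2.60 ± 0.29 (edgeR adjusted p = 0.000164).

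In batch 2 Mal-A6 was at 31.1, 32.0 and 55.8 CPM in controls, at 13.3, 16.3 and 14.2 CPM with da:da and at 11.1, 19.7 and 6.39 CPM with scute. Every library with a transgene was below every control. The change was −1.44 ± 0.34 with da:da (edgeR adjusted p = 0.0166) and −1.68 ± 0.34 with scute (edgeR adjusted p = 0.00158). The scute call held under every alternative. That with da:da was lost without the third control (−1.11, edgeR adjusted p = 0.0754), the first da:da library (0.0574) or the third (0.0567). Scute and da:da differed by −0.24 ± 0.34 (edgeR adjusted p = 0.633), and da:da and da by 0.93 ± 0.50 (edgeR adjusted p = 0.332).

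Mal-A7 (FBgn0033296) and Mal-A8 (FBgn0033297), maltase genes at the other end of the cluster, were lower with da overexpressed, and Mal-A8 was higher with da RNAi. Mal-A8 was at 1.59, 0.477 and 0.661 CPM in controls of batch 1, at 0.121 and 0.202 CPM with da (4 and 9 counts) and at 2.69, 3.74 and 2.14 CPM with da RNAi. The 3 groups did not overlap. The change was −2.44 ± 0.63 with da (edgeR adjusted p = 0.0199) and 1.65 ± 0.46 with RNAi (edgeR adjusted p = 0.032), and overexpression against knock-down gave −4.09 ± 0.64 (17.1-fold lower, edgeR adjusted p = 0.00117). The first call was lost without the first (0.102) or second (0.0748) da library, and the value was −1.77 (edgeR adjusted p = 0.0439) without the first control. The second was lost without the second control (1.34, 0.119), the third control (0.0839) or the first (0.0634) or second (0.0975) knock-down library, and was 2.32 (edgeR adjusted p = 0.00977) without the first control. The difference between overexpression and knock-down was called under every alternative.

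Mal-A7 was at 0.996, 0.953 and 1.85 CPM in controls of batch 1, at 0.482 and 0.337 CPM with da (16 and 15 counts) and at 2.49, 3.74 and 1.87 CPM with da RNAi. Here too the groups were separate, though the lowest knock-down library and the highest control nearly met. The change with da was −1.63 ± 0.47 (edgeR adjusted p = 0.0335), lost in the fit of all 17 libraries (0.174), with the replicate block (0.0793) and without the third control (0.0761), the first da library (0.0697) or the second (0.171). The change with RNAi was 1.09 ± 0.38 (edgeR adjusted p = 0.0689), not called, and called with DESeq2 (DESeq2 adjusted p = 0.0429), without a filter (0.0456) and without the third control (1.47, 0.0298). Overexpression against knock-down gave −2.73 ± 0.48 (edgeR adjusted p = 0.00234) and was called under every alternative.

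In batch 2 neither gene was called. Mal-A7 was at 6.22, 8.12 and 24.2 CPM in controls, 5.64, 4.67 and 4.10 CPM with da:da and 6.73, 28.2 and 4.13 CPM with scute, and Mal-A8 was at 4.15, 7.59 and 9.02, at 2.16, 4.33 and 3.86, and at 5.00, 12.7 and 2.19 CPM. The second scute library and the third control held most of the Mal-A7 counts. The da:da libraries were all below the controls for Mal-A7 and overlapped with them for Mal-A8, with changes of −1.42 ± 0.65 (edgeR adjusted p = 0.221) and −1.01 ± 0.52 (edgeR adjusted p = 0.288). With scute the changes were 0.02 ± 0.63 and −0.07 ± 0.51. Without the third scute library both genes were called higher with scute than with da:da, by 1.86 for Mal-A7 (edgeR adjusted p = 0.0258, also called with total counts at 0.0494) and 1.36 for Mal-A8 (edgeR adjusted p = 0.0212).

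The remaining maltases, Mal-A1 (FBgn0002570) and Mal-A4 (FBgn0033294), were called in no comparison. Mal-A1 ranged from 1.30 to 3.77 CPM over the libraries of batch 1. In batch 2 it was at 22.9, 34.1 and 68.6 CPM in controls, at 14.3, 13 and 22.3 CPM with da:da, all under the lowest control, and at 15.2, 35.2 and 10.6 CPM with scute. The change with da:da, −1.34 ± 0.45, missed the threshold (edgeR adjusted p = 0.0858), and it was called in the fit of the compared groups only (0.0341) and without the first control (0.0497), the second scute library (0.034) or the third (0.048). With scute it was −1.04 ± 0.45 (edgeR adjusted p = 0.0812), called without the second scute library (−1.70, 0.00631) or the first control (0.0362). Mal-A4 was at 1.33 to 4.71 CPM in batch 1 and 1.39 to 2.73 CPM in batch 2. Its largest difference was −1.01 ± 0.41 for da overexpression against knock-down, whose libraries did not overlap (edgeR adjusted p = 0.0932). It was called without the first control (0.042), in the fit of the compared groups only (0.046), in that of all 17 libraries (0.0446) and without a filter (0.0499).

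The direct comparisons gave 6 of the 10 genes called between da overexpression and knock-down, 1 higher and 5 lower, where 30.1% of all genes were called (16% higher, 14.1% lower). Amyrel was the member that was higher, and Amy-p, Amy-d, Mal-A6, Mal-A7 and Mal-A8 were lower. Between scute and da:da 5 were called, with 42.7% of all genes called (21.4% higher, 21.2% lower), a share near that of the set. Mal-A2 and Mal-A3 were higher with scute. Amyrel, Amy-d (−2.13 ± 0.41, edgeR adjusted p = 0.00116) and Amy-p (−1.25 ± 0.42, edgeR adjusted p = 0.0297) were lower, the last not called with DESeq2 (0.0567), with total counts (0.101) or without the third da:da library (0.105), the first scute library (0.0875) or the third (0.0861). The difference between the change with da:da and that with da was called for 0 of the 10 by edgeR, with 6.99% of 14083 genes called (2.5% higher, 4.49% lower). At an unadjusted p under 0.05 it numbered 2, Amy-d (1.95 ± 0.85, edgeR adjusted p = 0.213) and Mal-A3 (2.13 ± 0.84, edgeR adjusted p = 0.158), and 0 were called by DESeq2. Mal-A3 was called without the third control of batch 1 (2.59, 0.0162) and Amy-d without the second da library (4.23, 0.0482).

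Position in the maltase cluster did not order the changes alike across genotypes. With scute the rise was at Mal-A2 and Mal-A3, while Mal-A1 to their left changed by −1.04 and Mal-A4, which begins 922 bases past Mal-A3, by −0.14. With da RNAi Mal-A2 and Mal-A3 fell and Mal-A8, at the right end, rose. With da overexpressed, Mal-A3, Mal-A6, Mal-A7 and Mal-A8 were lower. Mal-A5, the maltase of the cluster outside the set, ends 65 bases before Mal-A6 and was at 0.338 ± 0.0943 CPM with da against 3.09 ± 0.295 CPM in controls (log2 change −3.17 ± 0.33, edgeR adjusted p = 0.000151). It fell with da RNAi too (−0.88 ± 0.25, edgeR adjusted p = 0.0346) and with scute (−1.38 ± 0.35, edgeR adjusted p = 0.0064). Just left of the cluster the cytochrome P450 genes Cyp4e2 and Cyp4e1 rose with scute, by 1.40 ± 0.28 (edgeR adjusted p = 0.00129) and 1.66 ± 0.45 (edgeR adjusted p = 0.0099). To the right mtt, which encodes a receptor, was at 0.08 ± 0.25 with scute (edgeR adjusted p = 0.841). With da RNAi mtt was called higher, by 1.61 ± 0.49 (edgeR adjusted p = 0.0433), at 0.936 against 0.305 CPM. Cyp4e2 rose there too, by 1.16 ± 0.23 (edgeR adjusted p = 0.00697), and Cyp4e1 was not called (0.38 ± 0.37, edgeR adjusted p = 0.52).

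**Figure D4:**
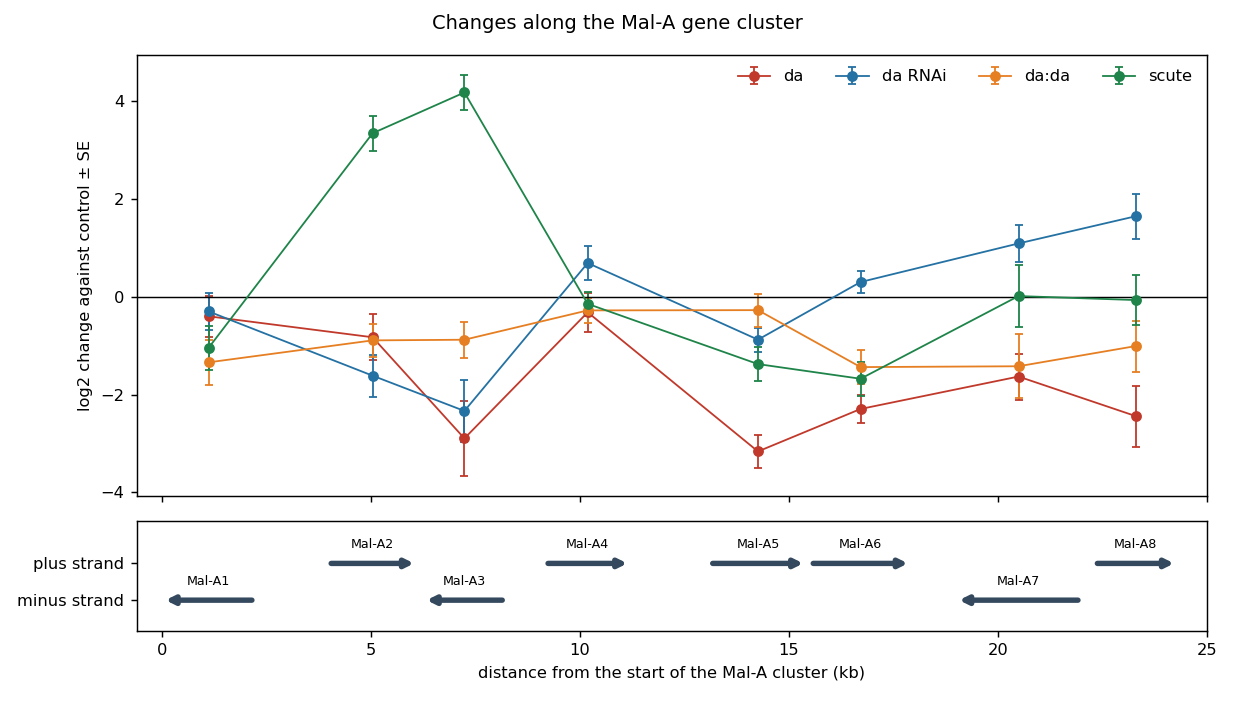
Log2 change against control, with its standard error as bars, of the maltase genes against their distance in kb from the start of the cluster, for each genotype (top; lines only join the genes), and the genes with their strand as arrows (bottom). The scute line stands out at Mal-A2 (3.35) and Mal-A3 (4.18), and Mal-A4 next to them is at −0.14.

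Other genes that handle sugars were listed beside the set. Counts in these and the lists below stand beside the shares of all genes called. Those were 13.5% higher and 9.36% lower with da, 11.2% and 9.16% with RNAi, 5.39% and 6.52% with da:da, and 22.8% and 22.2% with scute. Among 7 further genes listed as sugar-cleaving enzymes, 1 was higher and 2 lower with da overexpressed, and 2 lower with da RNAi. With da:da 1 was higher and 1 lower, and with scute 2 were higher and 3 lower. Of these calls, GCS2beta was lower with da (log2 change −0.73) and scute (−0.51), and GCS2alpha was higher with scute (0.73). Trehalase (Treh), which splits the circulating disaccharide trehalose, was at 210 ± 24.7 CPM in controls of batch 1, 539 ± 28.1 CPM with da and 158 ± 12.8 CPM with da RNAi. It was at 173 ± 29.1 CPM in controls of batch 2, 938 ± 145 CPM with da:da and 295 ± 37.9 CPM with scute. All 4 changes were called, 1.36 ± 0.14 with da, −0.42 ± 0.13 with RNAi, 2.44 ± 0.16 with da:da and 0.77 ± 0.15 with scute. The alpha-glucosidase gene tobi was at 13.1 ± 6.96 CPM in controls of batch 2, 4.26 ± 1.39 CPM with da:da (edgeR adjusted p = 0.0152) and 4.61 ± 1.18 CPM with scute (edgeR adjusted p = 0.00562). The maltase genes of the other group, Mal-B1 and Mal-B2, were called against control in no genotype.

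Some sugar carriers were called in each genotype, to be read beside the shares of all genes given above. Of 9 listed, 6 were tested in batch 1, with 3 higher and 2 lower with da, and 3 higher and 1 lower with RNAi. All 9 were tested in batch 2, with 2 higher and 1 lower with da:da, and 4 higher and 1 lower with scute. Tret1-1, a trehalose transporter, was at 442 ± 54.5 CPM in controls, 181 ± 18.0 CPM with da and 779 ± 147 CPM with da RNAi, and in batch 2 at 137 ± 21.1 CPM in controls, 33.3 ± 5.96 CPM with da:da and 83.6 ± 27.5 CPM with scute. All 4 of these changes were called. The transporter sut2 was at 3.91 ± 0.534 CPM in controls and 40.6 ± 19.0 CPM with scute (log2 change 3.37 ± 0.34, edgeR adjusted p = 6.66e-06).

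Regulators of the response to dietary sugar were higher in part. Of 6, da raised 3 and lowered 0, RNAi raised 2, da:da raised 2, and scute raised 2 and lowered 3. The transcription factor gene sug (sugarbabe), which is induced by sugar, was at 2.87 ± 0.779 CPM in controls of batch 1, 35.4 ± 10.2 CPM with da and 16.3 ± 5.94 CPM with da RNAi, both called higher. In batch 2 it was at 1.91 ± 0.670 CPM in controls and 23.0 ± 13.7 CPM with scute (log2 change 3.59 ± 0.40, edgeR adjusted p = 1.43e-05). The sugar sensor Mondo was higher with da (0.62 ± 0.12), da:da (0.57 ± 0.12) and scute (0.70 ± 0.12), all called.

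Proteases and lipases that digest other food were higher in part with da RNAi. Of 28 digestive proteases, 21 were tested in batch 1 and 27 in batch 2. With da none passed, 1 having an unadjusted p under 0.05, 5 of 21 were higher and 0 lower with RNAi (median log2 change 1.71, where 11.2% of all genes were higher), 1 was lower with da:da, and 1 was higher and 1 lower with scute. Their summed level was 24.1 to 535 CPM in controls of batch 1, 63.0 to 255 CPM with da and 257 to 1125 CPM with da RNAi. That was a spread between controls far above that of Mal-A6 in the same libraries, 15.8 to 18.6 CPM. Of 10 digestive lipases, 7 were tested in batch 1, where 1 was higher with da and 2 with RNAi (median log2 change 1.45), and all 10 in batch 2, where with da:da and with scute 1 was higher and 1 lower each.

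In batch 1 marker sums moved as well. The 13 enterocyte markers summed to 820 and 990 CPM with da and 957 to 1141 CPM with da RNAi, both above the 690 to 744 CPM of controls. Of 11 tested, 2 and 4 were higher and 0 lower. The septate junction gene Tsp2A was at 248 ± 76.6 CPM with da and 185 ± 34.2 CPM with RNAi, against 57.2 ± 7.42 CPM in controls. With RNAi mesh was at 111 ± 26.1 against 26.75 ± 1.86 CPM, and Ssk at 135 ± 46.5 against 48.0 ± 6.11 CPM. Myo31DF was at 303 ± 19.4 CPM with da and 405 ± 13.6 CPM with RNAi, against 364 ± 29.7 CPM, and neither change was called. Enteroendocrine markers had 6 of 12 lower with da and 7 of 12 lower with RNAi, at a summed 111 and 584 CPM and 133 to 276 CPM against 238 to 311 CPM, with the peptide gene Mip at 0 in all libraries of both. With da:da 1 of 13 enterocyte markers was higher and 3 of 12 enteroendocrine markers lower. Of all genes, 13.5%, 11.2% and 5.39% were higher with da, RNAi and da:da, and 9.36%, 9.16% and 6.52% lower. Their part in the changes of amylases and maltases was not tested.

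In the authors' deposited table of DESeq2 results, 4 calls of these genes differed from those above. The authors' deposited table gives Amy-d with da knock-down a log2 change of 1.36 and an adjusted p of 0.0440, and Amyrel −2.37 and 0.0354. With da overexpressed, the authors' deposited table gives Amy-p −1.92 and 0.0383, and Mal-A7 −1.64 and 0.101. For scute the authors' deposited table lists 3.39 for Mal-A2 and 4.23 for Mal-A3.

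The genes whose pattern over the 17 libraries was most like that of the 3 members with the highest mean level were found among 4697 genes with at least 10 CPM on average in both batches, from log2 CPM centred on the control mean of each batch. The points share libraries and batches, and the values are descriptions. Nearest to Mal-A2 were CG8289 (Pearson r = 0.97), PIG-G (0.97), Mcm6 (0.96) and jumu (0.96). Nearest to Mal-A6 were CG3348, CG6073, FucTA and CG8320 (each 0.90), and nearest to Amy-p were CG9393 (0.88), CG17593 (0.87), Fdx2 (0.86) and CG31248 (0.86).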

How the data were processed

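RNA was isolated from sorted cells, amplified and made into stranded mRNA libraries, per the labels' protocols. The deposited raw counts per gene were made by the authors with featureCounts 2.0.2 on BDGP6.28 exons, annotation release 101, without strand, without multi-mapping reads and, in batch 2, with each mate counted, per the file headers. The aligner is not given in the sources used here. The authors' deposited table gives log2 fold changes and an adjusted p-value per gene from DESeq2, per its title sheet. A deposited sheet of counts with 17 columns for samples was not used. Gene symbols were those in the authors' sheets (9986 genes) or a reference table (7762). No pair of libraries was identical.

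Counts were analysed in R 4.3.3 with edgeR 4.0.16 (limma 3.58.1) in 1 quasi-likelihood fit per batch, with filterByExpr, TMM scaling and 1 mean per group. The difference between the da:da and da changes came from 1 fit of all 17 libraries. DESeq2 1.42.0, other scalings and filters, other groups in the fit, summed amylase counts, batch 2 counts divided by 2, replicate blocks and each library left out were alternatives. Standard errors are the log2 change divided by the root of its F value. The scripts were tested on simulated counts. All members are named, and other listed genes are named only among the 4 called with the largest change in a list and at least 10 CPM, apart from the cluster's neighbours and the maltases outside the set, which were chosen for their place or family, and the listed genes whose da:da and da changes differed, named after their values were seen. Members and lists were chosen with earlier results of these data known.

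Same-numbered control and knock-down libraries had correlated deviations from their group means in all 3 pairs (r = 0.187, 0.19 and 0.287 over 9540 genes), so these numbers were taken to pair them. The main knock-down values nevertheless come from the fit without a block, and a fit with one is named where it is used. The da overexpression libraries had r of −0.0903 and −0.233 with same-numbered controls and −0.279 and −0.255 with knock-down. As 2 libraries deviate from their mean in mirror image, crossed numbers and no pairing cannot be told apart there. In batch 2 r was −0.11 to 0.159, and the labels do not say what the numbers mark. Replicates were separate pools of guts, so p-values measure the spread between pools. In the fits without a block that spread includes whatever same-numbered libraries share.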

Additional observations from a re-analysis of the deposited data

Results flagged for a closer look

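The change with da:da and the change with da, each against the control of its own batch, were compared by edgeR's test. They differed for 15 of the genes listed or named beside the members, and for 0 of the members themselves. Of 14083 genes tested, 6.99% were called for this difference (2.5% higher, 4.49% lower). The lists held 142 matched entries, members included, and cluster neighbours and genes of like pattern were also looked at. Among the sugar genes the difference in log2 change was 1.16 ± 0.22 for Treh (edgeR adjusted p = 0.00323), which rose with both, and 2.96 ± 0.49 for Mal-A5 (edgeR adjusted p = 0.000854). Mal-A5 was at 0.271 and 0.405 CPM with da against 2.75 to 3.28 CPM in its controls, and at 0.689 to 0.846 CPM with da:da against 0.664 to 1.07 CPM. The difference was 1.42 for the listed sugar carrier CG10960 (edgeR adjusted p = 0.000877) and −2.90 for the transcription factor gene sug (edgeR adjusted p = 0.00315). Outside the lists it was 1.23 for CG31248 (edgeR adjusted p = 0.00357), a gene named for its pattern like that of Amy-p in these same data. Among marker genes it was 2.32 for pros, 1.21 for mira, −2.11 for ZnT35C and 7.73 for Mip, whose fitted value depends on the prior count. It was −2.32 for Mhc and −1.92 for wupA, visceral muscle markers, 5.32 for Col4a1 and 3.76 for vkg, haemocyte markers, and −5.51 for the lysozyme gene LysB. For da, the gene overexpressed, it was −1.39. LysB and ZnT35C belong to lists that were low in batch 1. The 7 lysozyme genes summed there to 0.432 to 1.09 CPM in controls and 0.753 and 2.79 CPM with da. The 4 tubule markers summed to 0.940 to 1.34 CPM in controls and 1.90 and 2.99 CPM with da. Read layout differs between the batches and cannot be told apart from genotype in these differences.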

How the results depend on the processing

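Of 1312 changes of single members recomputed under the alternatives, 1187 kept direction and side of the threshold, 42 lost the call, 38 gained one and 45 changed sign, all 45 among changes that were not called. Of 26 called changes 15 held in every alternative. No call was lost by the stricter filter, RLE scaling or dividing batch 2 counts by 2.

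Counts of called members moved by over 1.5 times in these settings. With da knock-down, 3 became 6 without a filter, where the count of all genes called, 1947 in the main fit, moved by no more than 1.5 times. The 3 became 5 with the replicate block over knock-down and control libraries alone (2676 genes called). With the numbers of da overexpression crossed they were 5 as well (2374 genes called), both blocks being chosen after seeing the data. With total counts 3166 genes were called, against 1947. With the replicate block over batch 2, da:da members called rose from 2 to 4, where 1755 genes were called against 1690. Mal-A2 was then at −0.81 (edgeR adjusted p = 0.00514) and Mal-A3 at −0.86 (edgeR adjusted p = 0.00868). For the difference between da:da and da, members called rose from 0 to 1, where 1182 genes were called against 985. The labels do not say what the numbers mark, so whether they pair libraries in batch 2 and in da overexpression is not known. The block moved no other count by over 1.5 times. Of all genes, 1196 to 1863 were called with da:da when each library was left out in turn. The ranges were 5627 to 6553 with scute and 5174 to 6107 for scute against da:da. In the main fits 30.1% of all genes were called between da and knock-down and 6.99% for the difference between da:da and da. Without each library in turn, members called ranged from 0 to 4 with da knock-down (0 without the second control or the first or second knock-down library, 1 without the first control), 2 to 5 with da (2 without the first da library, 3 without the second), 5 to 7 between da and knock-down, 1 to 4 with da:da (4 without the first control, 1 without the third control or the first da:da library or the third), 0 to 1 for the difference, and 4 to 6 with scute and for scute against da:da. Genes called ranged from 937 to 2163 with knock-down (937 without the second control, 1095 without the first) and from 1339 to 2118 with da (1339 without the second da library, 1379 without the second control).

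Signs changed as follows. With total counts, which shift the median of all genes by −0.362 with knock-down, 0.115 with da:da and 0.443 with scute, the change was 0.0825 for Amyrel, 0.30 for Mal-A4 and 0.38 for Mal-A8 with scute, −0.0677 for Mal-A6 with knock-down, 0.21 for Mal-A1 between da and knock-down and 0.0863 for Mal-A6 between scute and da:da. Mal-A7 with scute was −0.0293 with RLE scaling, −0.0285 with DESeq2, −0.0236 in the compared groups alone and −0.16 with the block. For the difference between da:da and da, Mal-A2 was −0.0168 with RLE and −0.0077 with DESeq2 and Mal-A4 −0.0243 with the block. Amy-d with da:da was −0.75 when summed with Amy-p. Leaving out libraries in turn gave changes of both signs that were not called: with scute −0.69 to 0.11 for Amyrel, −0.30 to 0.13 for Mal-A4, −1.25 to 0.86 for Mal-A7 and −0.95 to 0.35 for Mal-A8; with knock-down −0.53 to 0.11 for Mal-A1; with da −0.95 to 0.0138 for Mal-A1 and −0.62 to 0.0921 for Mal-A4; between da and knock-down −0.66 to 0.30 for Mal-A1; between scute and da:da −0.36 to 0.61 for Mal-A1, −0.0199 to 0.31 for Mal-A4 and −0.74 to 0.0776 for Mal-A6; and for the difference −0.38 to 0.53 for Mal-A2, −0.30 to 0.41 for Mal-A4 and −0.0722 to 1.13 for Mal-A7. The causes were not tested.

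Low counts limit Amyrel with da RNAi and in controls of batch 1, and Mal-A8 and the amylases with da overexpressed. They also limit Mal-A3 with da (15 and 9 counts) and with da RNAi (14, 17 and 16), and Mal-A7 with da (16 and 15). The da group is also limited by its 2 libraries.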

Other observations

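Mal-B1, a maltase gene outside the cluster, had libraries far apart within every group of batch 2. It was at 19.0, 5.36 and 0.190 CPM in controls, at 0.145, 0.251 and 13.1 CPM with da:da and at 0.318, 0.215 and 7.46 CPM with scute. The highest library of Mal-B1 was 34.7 to 99.8 times the lowest in these groups. Among the 10 members the widest such ratio in batch 2 was 6.82, for Mal-A7 with scute.

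Some markers of other tissues changed. ZnT35C, a zinc transporter gene listed as a Malpighian tubule marker, was at 57.0 ± 2.04 CPM with scute against 1.26 ± 0.446 CPM in controls (n = 3 each, log2 change 5.49 ± 0.23, edgeR adjusted p = 1.09e-08), and it was the single one of 4 tubule markers called there. With scute 2 of 9 visceral muscle markers, 2 of 5 fat body markers tested and 3 of 7 haemocyte markers tested were higher and 0 lower, where 22.8% of all genes were higher. In batch 1, da raised 3 of 6 muscle markers tested, and that list summed to 11 and 9.01 CPM against 3.49 to 4.04 CPM in controls. Of 3 haemocyte markers tested there, 2 were lower with da and 2 with da RNAi. With da 13.5% of all genes were higher and 9.36% lower, and with RNAi 9.16% were lower.

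Of 10 progenitor markers, 4 were higher with da and 4 with da:da, with 0 lower. RNAi gave 1 higher and 4 lower, and scute 4 higher and 5 lower. Of all genes, 13.5% were higher with da and 5.39% with da:da. With RNAi 11.2% were higher and 9.16% lower, and with scute 22.8% and 22.2%. The gene mira, an adaptor in asymmetric division, was at 43.9 ± 5.58 CPM in controls of batch 1 (n = 3), 143 ± 24.8 CPM with da (n = 2) and 8.98 ± 0.463 CPM with RNAi (n = 3). The 7 lysozyme genes summed to 2.45 to 7.5 CPM in controls of batch 2, 2.12 to 5.57 CPM with da:da and 2.71 to 9.04 CPM with scute.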
